A study of Rattus norvegicus with 30 samples.

Results

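The nuclear-encoded subunits of the oxidative phosphorylation complexes were followed in amygdala tissue of 30 Sprague Dawley rats, all adults. Members were the genes on the Illumina array whose symbol begins with Nduf followed by a, b, c, s or v and a digit, is Sdha, Sdhb, Sdhc or Sdhd, or begins with Uqcr, with Cox and a digit 4 to 8, or with Atp5. The rule gave 61 genes of the 13337 named genes on the array, with 29 in complex I, 4 in complex II, 4 in complex III, 11 in complex IV and 13 in complex V. Each of the 61 was measured by 1 probe. The symbols of all 61 are those of the RefSeq table of the GRCr8 assembly, and the genes lie on 19 chromosomes, with Ndufa1, Ndufb11 and Cox7b on X.

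The electron transport chain of the inner mitochondrial membrane passes electrons from NADH through complex I, or from succinate through complex II, to coenzyme Q, then through complex III and cytochrome c to complex IV, which reduces oxygen. Complexes I, III and IV pump protons, and complex V, the ATP synthase, uses the resulting gradient to make ATP. Neurons depend on this route for the ATP that restores ion gradients after firing and supports synaptic transmission. The core subunits encoded by mitochondrial DNA are outside the symbols used here, so the values below concern the subunits made from nuclear genes.

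Rats had been exposed to predator scent stress or left unexposed. The groups were 5 females with an extreme behavioural response, 5 females with a minimal response and 5 unexposed, behaviourally tested female controls, and 3 male groups of the same kinds with 5 rats each. Each array held RNA of 1 rat, and the labels do not define the behavioural cut-offs or the time of tissue collection. Values are log2 intensities, and probes entered the test if 5 or more arrays put them over the array median (7.02). A difference was called when its limma p-value was below 0.05 after Benjamini-Hochberg adjustment across the 13308 probes tested. The tissue is bulk, so fewer cells of a type and less RNA per cell cannot be told apart.

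Properties of the arrays crossed these groups. The Rpl37l1 probe, named for a ribosomal protein L37-like gene, averaged 9.62 ± 0.27 on 14 arrays and 12.45 ± 0.18 on the other 16 (SD), with an empty interval of 1.84 between them. The 14 lower arrays were all 5 female controls, all 5 male extreme responders, 2 female minimal responders (2 and 3), 1 female extreme responder (2) and 1 male minimal responder (1). All 5 male controls were among the 16 higher arrays. In males, extreme response against control and array state therefore cannot be told apart, since each group lies in a state of its own. Among females, 7 of 10 exposed rats and 0 of 5 controls were on higher arrays. Fits below with the array state as a covariate estimate its term only from groups holding both states. These are the female minimal, female extreme and male minimal responders, and the term is carried over to the other groups. Of the neuron list, 14 of 14 genes were above the array median on every array, and of the astrocyte list 8 of 8. The mean deviation of 6 thalamus markers from their mean over all arrays ran between -0.12 and 2.16 in female extreme responders, -0.39 and 1.30 in female minimal responders and -0.67 and 1.56 in female controls. In males it ran between -0.87 and -0.53 in extreme responders, -0.76 and -0.55 in minimal responders and -0.70 and -0.29 in controls. Myelin markers (9 genes) ran between -0.19 and 1.91, -0.53 and 1.74 and -1.29 and 1.25 in the same female groups and between -1.28 and 0.47, -1.22 and -0.57 and -1.22 and 0.13 in the male ones. Of 7 sex-linked symbols looked up, 0 had a named probe, and the labels of sex went unchecked. The design text of the series calls the rats female but lists both sexes, and sex is used here as labelled for each rat. The rat numbers follow separate schemes for females and males, so sex and rat series cannot be told apart.

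Promoters of these genes are a classic place of shared control: nuclear respiratory factor 1 (NRF1), the ETS factor GABP (also called NRF2) and YY1 are known to bind upstream of many respiratory chain genes in mammals. The RefSeq promoter table held 53 of the 61 members. The 250 bases before the start that it uses were searched on both strands. For some members, such as Atp5pf, Atp5mc2 and Atp5f1d, these bases lie inside the annotated span of the gene. The letters searched for were GCGCANGCG (the NRF1 core), CCGGAAG (the ETS core) and AAGATGGC (the YY1 core). The NRF1 core was found in 14 of 53 member promoters (26.4%), against 5.53% of all 27457 promoters in the table. The ETS core was found in 15 (28.3%), against 7.74%, and the YY1 core in 2 (3.77%), against 1.69%. At least 1 of the 3 was present in 26 (49.1%), against 13.6%. The promoters of the table were not matched to the members for base composition or expression, and the part of either in these shares was not tested. These matches are letters in a window and not measured binding.

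The promoters shown belong to the members whose values are followed most closely below. Capitals mark a match to the ETS or YY1 core read on either strand. All sequences run 5′ to 3′ toward the start used in the promoter table, on GRCr8. For Atp5pf that start lies inside the annotated gene span (chr11:37368045-37375721), so its window is within the gene. The other 4 windows end next to the span. Cox4i1 is at chr19:65630133-65630382 (plus strand), Cox8a at chr1:213833624-213833873 (minus strand), Atp5pf at chr11:37375102-37375351 (minus strand), Ndufb2 at chr4:69334057-69334306 (plus strand) and Ndufb7 at chr19:41477292-41477541 (minus strand). Cox8a holds 2 ETS cores, Atp5pf an ETS and a YY1 core, and Ndufb7 an ETS core. Cox4i1 and Ndufb2 hold none of these letters in this window.
Cox4i1: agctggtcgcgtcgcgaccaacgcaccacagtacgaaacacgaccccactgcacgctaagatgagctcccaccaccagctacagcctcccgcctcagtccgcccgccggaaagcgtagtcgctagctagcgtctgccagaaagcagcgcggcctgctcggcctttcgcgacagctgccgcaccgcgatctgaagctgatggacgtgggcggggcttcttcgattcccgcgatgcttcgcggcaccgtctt
Cox8a: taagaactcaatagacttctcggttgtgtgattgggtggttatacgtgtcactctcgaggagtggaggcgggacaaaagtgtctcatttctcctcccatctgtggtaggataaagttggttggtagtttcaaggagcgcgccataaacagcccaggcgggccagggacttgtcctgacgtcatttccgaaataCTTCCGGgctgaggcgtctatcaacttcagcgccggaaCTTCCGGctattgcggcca
Atp5pf: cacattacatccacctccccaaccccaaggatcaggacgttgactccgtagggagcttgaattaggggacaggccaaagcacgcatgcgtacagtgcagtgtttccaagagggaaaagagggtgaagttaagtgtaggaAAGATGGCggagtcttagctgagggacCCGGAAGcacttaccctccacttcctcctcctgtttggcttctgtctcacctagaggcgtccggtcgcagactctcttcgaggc
Ndufb2: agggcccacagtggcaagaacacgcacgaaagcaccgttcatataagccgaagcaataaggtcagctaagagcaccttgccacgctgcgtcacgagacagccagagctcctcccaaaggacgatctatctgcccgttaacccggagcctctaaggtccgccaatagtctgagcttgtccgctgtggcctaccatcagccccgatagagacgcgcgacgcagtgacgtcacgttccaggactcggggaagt
Ndufb7: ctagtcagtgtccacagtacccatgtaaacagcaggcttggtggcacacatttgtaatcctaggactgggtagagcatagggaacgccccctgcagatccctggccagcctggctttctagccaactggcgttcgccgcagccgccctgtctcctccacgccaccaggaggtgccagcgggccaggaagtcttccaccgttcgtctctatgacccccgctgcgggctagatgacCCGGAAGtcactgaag

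Signal allowed a test for 59 of the 61 members: 28 of complex I, 4 of complex II, 4 of complex III, 10 of complex IV and 13 of complex V. The other 2, Ndufs4 of complex I and Cox8c, a testis isoform of complex IV, were above the array median on 0 arrays. A bright signal, more than 3 above the array median on the log2 scale, was given by 50 members. A further 7 that passed the filter had means less than 1.2 above it or, for Cox8b, below it (-0.070). They were Cox6a2 and Cox8b, the muscle isoforms of complex IV, with Cox6c, Ndufb4, Ndufv3, Atp5mc3 and Ndufs6-ps1, whose symbol is that of a pseudogene. Atp5mk, 1.71 above the median, and Ndufa7, 2.45 above it, lay between. Dim probes may miss a difference, and values of these 7 may describe little beyond background. Cox6c and Ndufv3 were above the array median on 30 arrays and Cox6a2 on 29. Ndufs6-ps1 was above it on 26, Ndufb4 on 22, Atp5mc3 on 19 and Cox8b on 6. A copy or pseudogene of the same name is annotated in RefSeq for 28 members, and probes of those genes may also take up RNA from the copies.

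The bright subunits varied little. The median SD over 30 arrays was 0.170 for the 50 bright members and 0.221 for the 2003 probes more than 3 above the median. These probes were not matched to the members for brightness above that cut, and the members' means lay between 3.73 and 7.44 above the median. Over all that passed the filter, the median SD was 0.1704 for members and 0.1696 for probes. The most variable members of each complex differed in how they varied. Ndufa5, an accessory subunit of complex I, had an SD of 0.32, with values between 11.25 in male control 4 and 12.35 in female minimal 3. Sdha, the flavoprotein of succinate dehydrogenase, had an SD of 0.30. It was 9.84 in male extreme 4 and between 10.78 and 11.54 on the other 29 arrays, so a single rat set its spread. In complex III the Rieske iron-sulphur protein Uqcrfs1 had an SD of 0.19. In complex IV the muscle isoform Cox6a2 had an SD of 0.45, at a mean only 0.88 above the array median. In complex V, Atp5pf, coupling factor 6 of the ATP synthase stalk, had an SD of 0.47.

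Subunits rose and fell together from rat to rat within groups. After each group's mean was removed, the mean pairwise correlation over 30 arrays was 0.24 among the 59 members, against 0.0018 among 1331 evenly spaced probes. It was 0.25 within complex I, 0.20 within complex II, 0.36 within complex III, 0.14 within complex IV and 0.21 within complex V. Cox5a and Cox5b, structural subunits of cytochrome c oxidase, followed the mean of the other members most closely, with r = 0.84 each, and 36 of 59 members had r over 0.5. Cox4i1 (r = 0.16) and Cox8a (r = 0.11) of the same complex hardly followed it. Only Ndufv3 (r = -0.42), Atp5mc3, Ndufa10l1 and Ndufa10 were below 0. The evenly spaced probes were not matched to the members for brightness. Array state still differed between rats within the female extreme, female minimal and male minimal groups. All arrays share one normalization, and these correlations are a description.

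**Figure D1:**
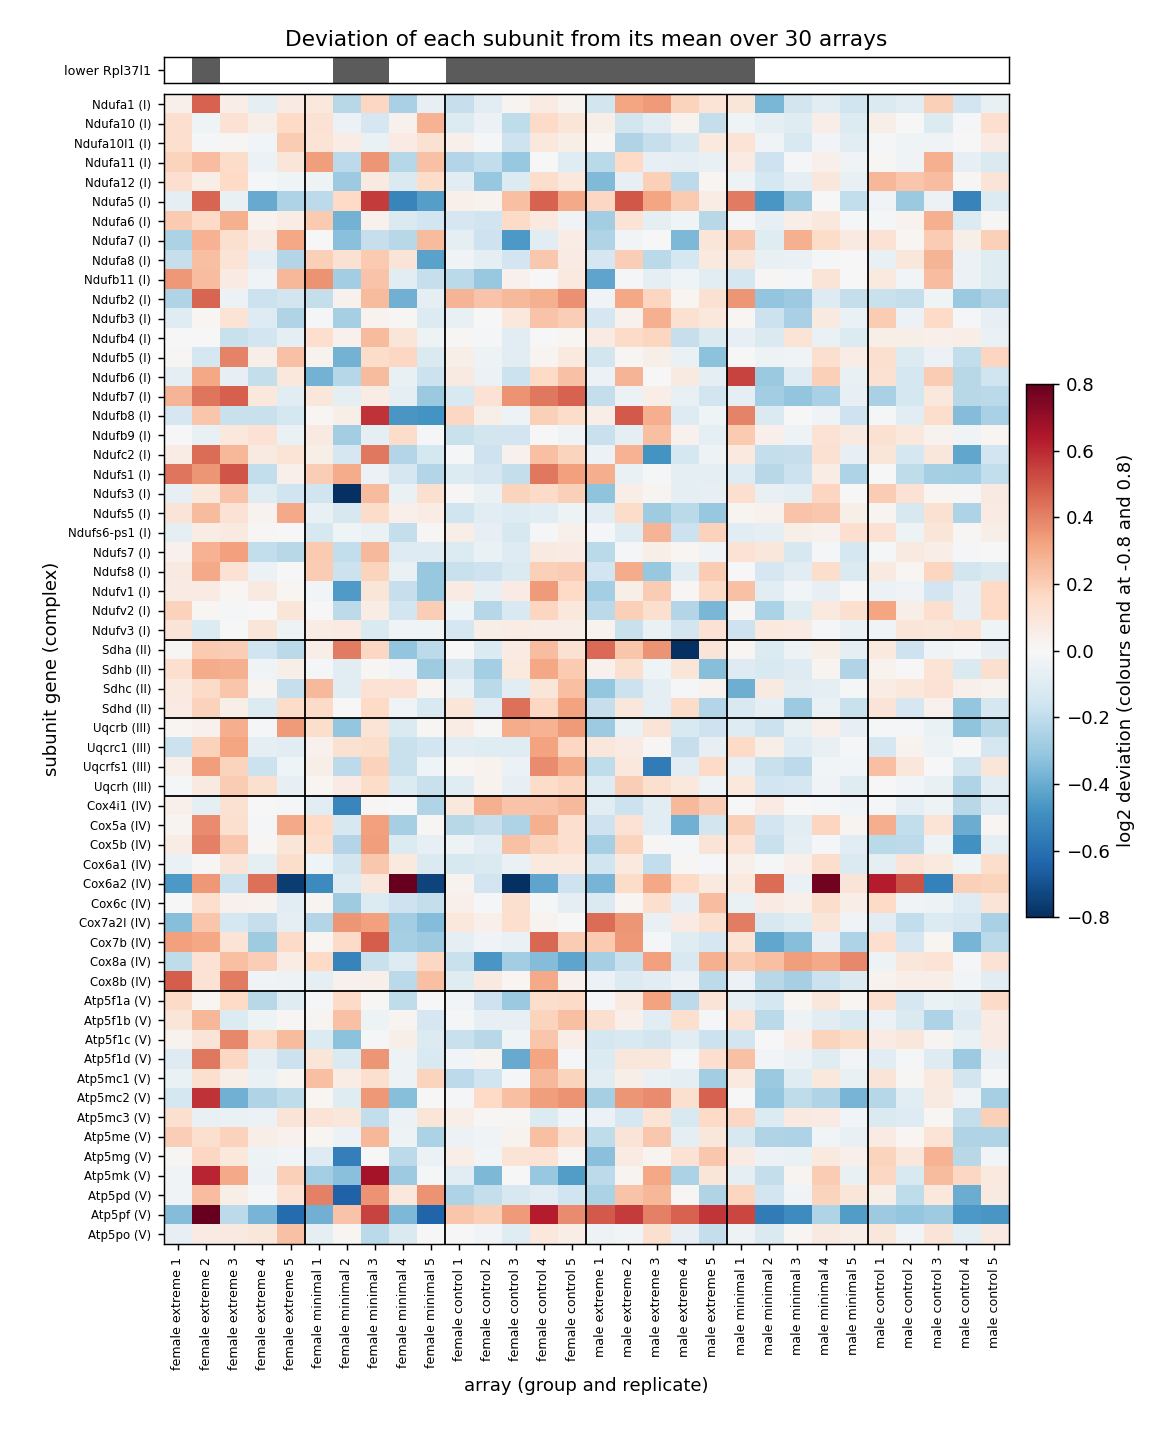
Heat map of the 59 members that passed the filter (rows, by complex) on 30 arrays (columns, by group and replicate), as log2 deviation from each member's mean over all arrays, with dark cells in the top strip for the 14 arrays lower in Rpl37l1. Columns such as female extreme 2, female minimal 3 and female control 4 are raised over many rows, and the Atp5pf row follows the strip.

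As whole complexes the subunits stayed close to their overall mean in every group. The mean deviation of the 59 members averaged 0.059 ± 0.10 in female extreme responders, -0.028 ± 0.114 in female minimal responders and 0.022 ± 0.099 in female controls (SD, n = 5 each). In males it averaged -0.0027 ± 0.075 in extreme responders, -0.026 ± 0.079 in minimal responders and -0.023 ± 0.073 in controls. The widest gap between group means was in complex II, with -0.097 ± 0.056 in male minimal responders and 0.072 ± 0.17 in female controls. Rats of every group overlapped with those of every other group of the same sex in each of the 5 complexes.

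**Figure D2:**
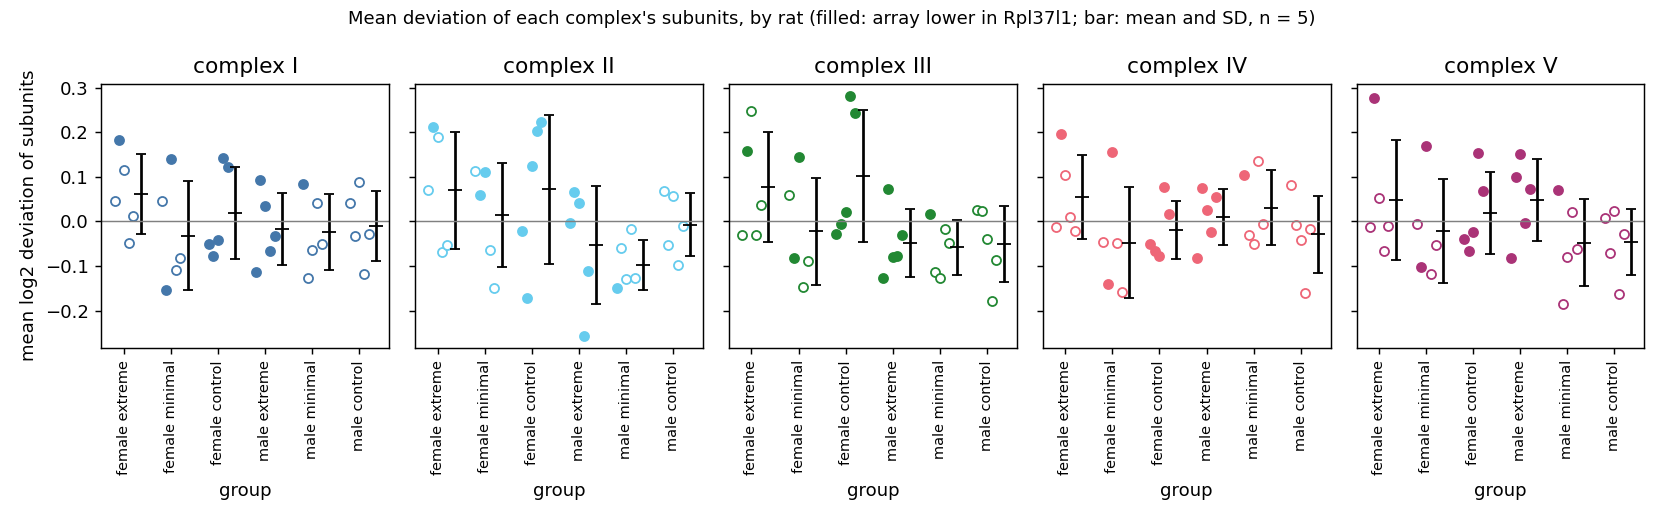
Mean log2 deviation of the subunits of each complex (y axis) for each rat, by group (x axis), with filled points for arrays lower in Rpl37l1 and bars for the group mean and SD (n = 5). Group means lie between -0.097 and 0.10, within the spread of single rats.

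Exposed females were set against unexposed females to ask which subunits differ after predator scent stress whatever the behavioural response. Among 59 subunits 1 was higher (3.27% of all probes tested were) and 1 lower (3.60% of all probes). Both belong to cytochrome c oxidase. Cox4i1, the ubiquitous form of the large regulatory subunit 4, fell by 0.29 (SE 0.074, 95% interval -0.44 to -0.14, limma adjusted p = 0.0153). Cox8a, the smallest nuclear-encoded subunit in its ubiquitous form, rose by 0.33 (SE 0.10, 95% interval 0.12 to 0.54, limma adjusted p = 0.0442). Of the 57 subunits not called, 31 had a positive difference, against 50.6% of all probes. The median over all 59 was 0.019, against 0.0019 for all probes. In the same rats the excitatory neuron list averaged -0.95 ± 1.13 in extreme responders, -0.51 ± 0.65 in minimal responders and 0.12 ± 0.65 in controls (SD, n = 5 each). Its part in the 2 calls was not tested.

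Cox4i1 in single rats had 13.25, 13.13, 13.32, 13.21 and 13.19 in female extreme responders and 13.12, 12.68, 13.21, 13.20 and 12.96 in female minimal responders. Female controls had 13.29, 13.49, 13.43, 13.43 and 13.46. Minimal responders lay wholly below the controls, and among extreme responders only rat 3 exceeded the lowest control. Minimal responders against controls gave -0.38 (SE 0.085, limma adjusted p = 0.0140), the 1 subunit of 59 called there (0.827% of probes were higher and 1.15% lower). Extreme responders against the same controls gave -0.20 (SE 0.085, limma adjusted p = 0.165). With the array state as a covariate the exposed difference was -0.36 (limma adjusted p = 0.0244) and that of minimal responders -0.44 (limma adjusted p = 0.0158). Among arrays of the lower state only, 3 exposed rats against 5 controls, the exposed difference was -0.38 (limma adjusted p = 0.146). Without female control 2 the adjusted p of the exposed difference was 0.0576.

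Cox8a was 12.97, 13.29, 13.41, 13.37 and 13.23 in female extreme responders and 13.33, 12.64, 12.999, 13.07 and 13.34 in female minimal responders. Female controls had 12.99, 12.71, 12.90, 12.82 and 12.75. All extreme responders but rat 1 exceeded every control, while minimal responders spanned the control range. Extreme responders against controls gave 0.42 (SE 0.12, limma adjusted p = 0.0276), the only subunit called in that comparison, where 3.35% of probes were higher and 3.18% lower. Minimal responders against controls gave 0.24 (SE 0.12, limma adjusted p = 0.308). With the array state as a covariate the exposed difference was 0.19 (limma adjusted p = 0.380) and that of extreme responders 0.26 (limma adjusted p = 0.288), so neither call was kept. Leaving out 1 array lost the exposed call in 17 of 30 cases, with limma adjusted p between 0.00752 and 0.14. The call in extreme responders was lost without female control 2 or 5 or female extreme 3 or 4, with limma adjusted p up to 0.084.

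**Figure D3:**
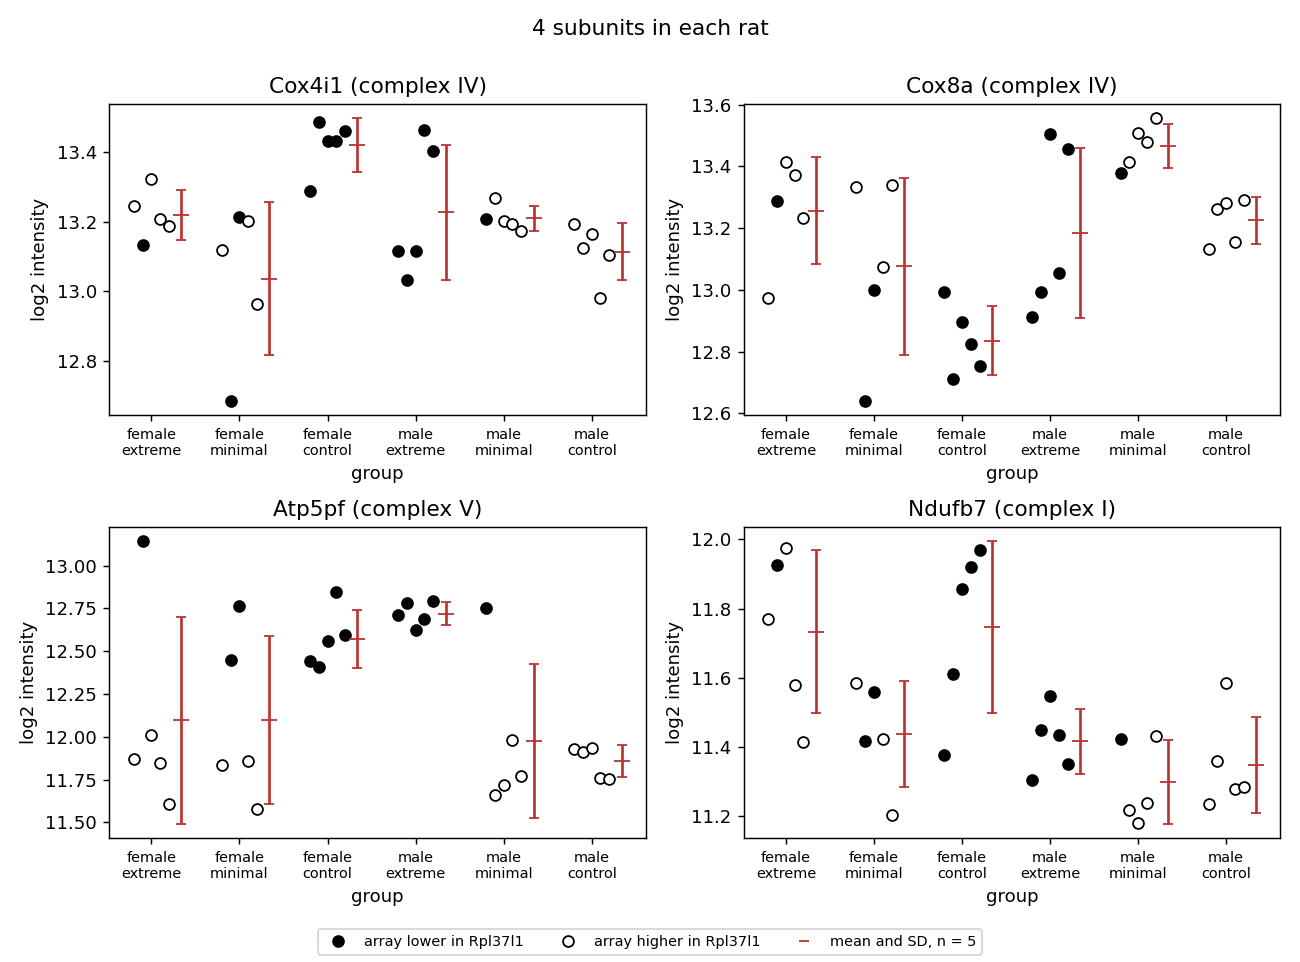
Log2 intensity (y axis) of Cox4i1, Cox8a, Atp5pf and Ndufb7 in each rat by group (x axis), filled for arrays lower in Rpl37l1, with the group mean and SD (n = 5) beside the points. Female controls are high in Cox4i1 and low in Cox8a, and the filled points of Atp5pf lie above all open ones.

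Below these 2 calls the members with the smallest p in exposed females came from complexes I and V. Ndufb2, an accessory subunit of the membrane arm of complex I, gave -0.33 (SE 0.11, limma adjusted p = 0.0551), and Ndufa11, another membrane arm subunit, 0.28 (SE 0.089, limma adjusted p = 0.0557). Ndufs5, also of complex I, gave 0.18 (SE 0.070, limma adjusted p = 0.121), and Atp5pf -0.47 (SE 0.19, limma adjusted p = 0.152). With the array state as a covariate Ndufb2 gave 0.0115 and Atp5pf 0.24. Complex III had all 4 members with a negative difference, between -0.14 and -0.01, and none was called. In complex II 1 of 4 was positive. For extreme responders alone against controls, Ndufs5 gave 0.26 (limma adjusted p = 0.0535) and Atp5mk 0.45 (limma adjusted p = 0.0766). Ndufa11 gave 0.29 (limma adjusted p = 0.0833), Atp5f1c 0.22 (limma adjusted p = 0.105) and Ndufb2 -0.31 (limma adjusted p = 0.129).

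Extreme and minimal responders of the same sex were compared to ask what accompanies the difference in behaviour after the same exposure. In females 0 of 59 subunits were called (0.0676% of probes were higher and 0.0601% lower), and the lowest limma adjusted p was 0.212. At an unadjusted p under 0.05 there were 10 subunits, 9 higher and 1 lower, or 16.9%, against 9.48% of all probes. Of 59 differences 48 were positive, against 50.1% of all probes, with a median of 0.090 against 0.00020. By complex the positive ones were 25 of 28 in complex I, 2 of 4 in complex II, 4 of 4 in complex III, 8 of 10 in complex IV and 9 of 13 in complex V. Because subunits covary within groups, these signs are not independent observations. Taken as pairs of the same number, extreme minus minimal responders differed in the mean of all subunits by -0.0038, 0.33, -0.034, 0.058 and 0.092 in pairs 1 to 5. The sample titles name no such pairing, which was taken from correlations in these same data. The second pair was far above the rest and 2 of 5 were negative. The mean was 0.088 over 5 pairs and 0.028 over the 4 without the second pair. Leaving out 1 array gave between 41 positive (without female extreme 2) and 51 (without female minimal 3). Markers of other cells differed between the same groups. The astrocyte list (8 genes) averaged -0.18 ± 0.15 in female extreme responders, between -0.40 and 0.016, and 0.18 ± 0.22 in female minimal responders, between -0.062 and 0.53 (SD, n = 5 each). All 8 of its genes had a negative difference, with a median of -0.41, as had all 8 of the striatum and central amygdala list, with a median of -0.75. The excitatory neuron list averaged -0.95 ± 1.13 in female extreme and -0.51 ± 0.65 in female minimal responders. The inhibitory neuron list averaged -0.30 ± 0.80 and 0.11 ± 0.52. The part of these markers in the subunit signs was not tested.

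Atp5f1c, the gamma subunit of the rotating stalk of the ATP synthase, had the smallest p. It was 12.22, 12.29, 12.57, 12.34 and 12.44 in female extreme responders and 12.08, 11.86, 12.17, 12.23 and 12.08 in female minimal responders, against 12.01, 11.96, 12.15, 12.41 and 12.24 in female controls. Only minimal responder 4 reached the range of the extreme responders. The difference was 0.29 (SE 0.081, 95% interval 0.12 to 0.45, limma adjusted p = 0.212). With the array state as a covariate it was 0.26, and on higher-state arrays alone, 4 extreme against 3 minimal responders, also 0.26. Ndufb7 gave 0.30 (SE 0.11, limma adjusted p = 0.388) and Ndufa6 0.23 (SE 0.092, limma adjusted p = 0.431), both accessory subunits of complex I. Atp5po, the subunit of the peripheral stalk that confers oligomycin sensitivity, gave 0.16 (SE 0.063, limma adjusted p = 0.420). The 1 lower subunit was the dim Ndufb4, at -0.18 (SE 0.066, limma adjusted p = 0.398).

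In males 0 of 59 subunits were called in any of the comparisons of exposure and response. Across exposed and control males 0% of all probes were called in either direction, and 4 subunits had an unadjusted p under 0.05, or 6.78%, against 9.37% of probes. Extreme against minimal responders likewise gave 0% of probes called, with 6 subunits at an unadjusted p under 0.05 (9.99% of probes). Minimal responders against controls gave 0% of probes called and 2 such subunits (5.15% of probes). Extreme responders against controls gave 0.301% of probes higher and 0.496% lower, with 8 such subunits (13.8% of probes). Signs were divided, with 28 of 59 positive in exposed against control males (47.4% of probes) and 27 of 59 in extreme against minimal responders (49.4% of probes). Ndufa12, an accessory subunit of complex I, had the smallest p in exposed males, at -0.24 (SE 0.081, limma adjusted p = 0.323).

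Atp5pf showed the largest difference of any subunit in extreme males, against minimal responders and against controls. Extreme responders had 12.71, 12.78, 12.63, 12.69 and 12.79, and minimal responders 12.75, 11.66, 11.72, 11.98 and 11.77. Male controls had 11.93, 11.91, 11.93, 11.76 and 11.75. Extreme responders lay wholly above the controls, and minimal responder 1, the only minimal male on a lower-state array, lay among them. Extreme responders against controls gave 0.86 (SE 0.23, 95% interval 0.40 to 1.32, limma adjusted p = 0.0616), and against minimal responders 0.74 (SE 0.23, limma adjusted p = 0.214). In a fit of male arrays alone both passed, with adjusted p of 0.00609 and 0.0366. With the array state as a covariate they gave -0.15 and -0.070.

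Array state moved with Atp5pf on every array. It lay between 12.41 and 13.14 on the 14 lower arrays and between 11.58 and 12.01 on the 16 higher ones, with no overlap. Ndufa5 and Ndufb2 also had ranges that did not overlap, with higher values on the lower arrays. They made 3 of 59 members (5.08%), against 36 of 13308 probes (0.271%). Within groups, the fitted term of higher minus lower arrays was -1.02 for Atp5pf, -0.70 for Ndufa5, -0.51 for Cox7a2l, -0.51 for Ndufb8 and -0.49 for Ndufb2. It rests on few lower arrays, 2 of female minimal, 1 of female extreme and 1 of male minimal responders. Cox7a2l is known as a supercomplex assembly factor. The term was 0.09 for Cox4i1 and 0.20 for Cox8a. The split was made from these arrays, on a gene outside the members, and what lies behind it was not tested.

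**Figure D4:**
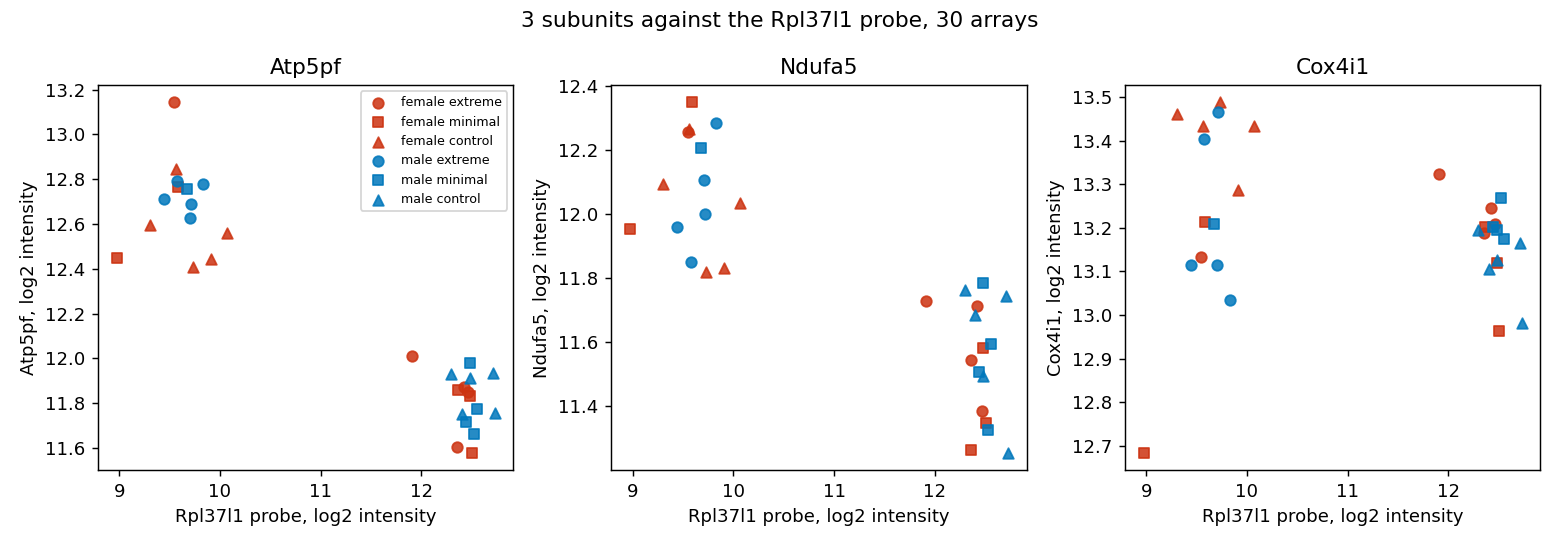
Log2 intensity of Atp5pf, Ndufa5 and Cox4i1 (y axes) against that of the Rpl37l1 probe (x axis) on 30 arrays, with red for females, blue for males, and circles, squares and triangles for extreme, minimal and control. Atp5pf and Ndufa5 separate into a high and a low set with the 2 sets of Rpl37l1 values, and Cox4i1 overlaps between them.

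Whether exposure acted differently in the sexes was tested as the female minus male difference of the exposed minus control effects. It called 0 subunits higher (2.25% of probes) and 3 lower (2.24% of probes), 1 each of complexes I, IV and V. Cox4i1 gave -0.40 (SE 0.10, limma adjusted p = 0.0274), made up of -0.29 in females and 0.10 in males. Ndufb2 gave -0.53 (SE 0.15, limma adjusted p = 0.0423) and Atp5pf -0.97 (SE 0.28, limma adjusted p = 0.0424). In males alone Atp5pf gave 0.49 (SE 0.19) and in females -0.47 (SE 0.19). Array state runs in opposite directions in the sexes, with controls on lower arrays in females and on higher arrays in males. With it as a covariate Ndufb2 gave 0.11, Atp5pf 0.35 and Cox4i1 -0.52 (limma adjusted p = 0.10), and 0 of 59 were called. The Cox4i1 call was also lost without female control 2 or male control 4, with limma adjusted p up to 0.061. Single arrays decided the calls of Atp5pf and Ndufb2 as well, which were lost in 21 and 19 of 30 cases.

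For extreme minus minimal responders the same test between the sexes called 0 of 59 (0.0301% of probes were higher and 0.0225% lower). At an unadjusted p under 0.05 there were 9 subunits, against 11.8% of probes. Atp5f1c came closest, at 0.47 (SE 0.11, limma adjusted p = 0.108), made up of 0.29 in females and -0.18 in males. Ndufs5, an accessory subunit of complex I, gave 0.41 (SE 0.11, limma adjusted p = 0.142). Without male minimal 1 the adjusted p of Atp5f1c was 0.0360.

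Males against females, over all 3 conditions, called 1 subunit higher and 5 lower, while 8.99% of all probes were higher and 10.2% lower. Among the 5 is the dim Cox8b, which was above the array median on 6 female and 0 male arrays. It entered the test through the sex in which it was higher, so its difference is not given, and without it 1 subunit was higher and 4 lower of 58. Ndufb7 fell by 0.29 (SE 0.063, limma adjusted p = 0.00222). It was between 11.30 and 11.55 in male extreme responders, 11.18 and 11.43 in male minimal responders and 11.23 and 11.58 in male controls. In females it was between 11.41 and 11.98 in extreme responders, 11.20 and 11.59 in minimal responders and 11.38 and 11.97 in controls, so the sexes overlapped. Uqcrb, the ubiquinone-binding subunit of complex III, fell by 0.20 (SE 0.054, limma adjusted p = 0.00968), and Sdhd, a membrane anchor of complex II, by 0.19 (SE 0.054, limma adjusted p = 0.0132). Cox8a rose by 0.24 (SE 0.067, limma adjusted p = 0.0136). Its means were 13.18, 13.47 and 13.23 in male extreme responders, minimal responders and controls, and 13.26, 13.08 and 12.84 in the same female groups. Extreme responders therefore did not share the rise. Cox5b fell by 0.17 (SE 0.060, limma adjusted p = 0.0489), a call lost in 18 of 30 cases with 1 array left out. The Cox5b call was also lost without a filter (limma adjusted p = 0.0685), with robust variances (0.0583) and with the array state as a covariate (0.0869).

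Without Cox8b, 17 of 58 subunits had a positive difference in males, against 47.8% of probes, and the median difference was -0.036, against -0.0052. Leaving out 1 array, with Cox8b kept, gave between 15 positive (without female control 2) and 23 (without female minimal 3). The median then ran between -0.052 and -0.019. As subunits covary within groups, these signs are not independent observations. All 4 members of complex II and all 4 of complex III had a negative sign. The X-linked members were not called: Ndufa1 gave -0.01, Ndufb11 -0.07 and Cox7b -0.16. In the same comparison all 6 thalamus markers and all 9 myelin markers were lower in males, with medians of -1.09 and -1.21. Of the excitatory neuron list 4 of 5 were higher, with a median of 0.92. The part of these markers in the subunit differences was not tested.

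**Figure D5:**
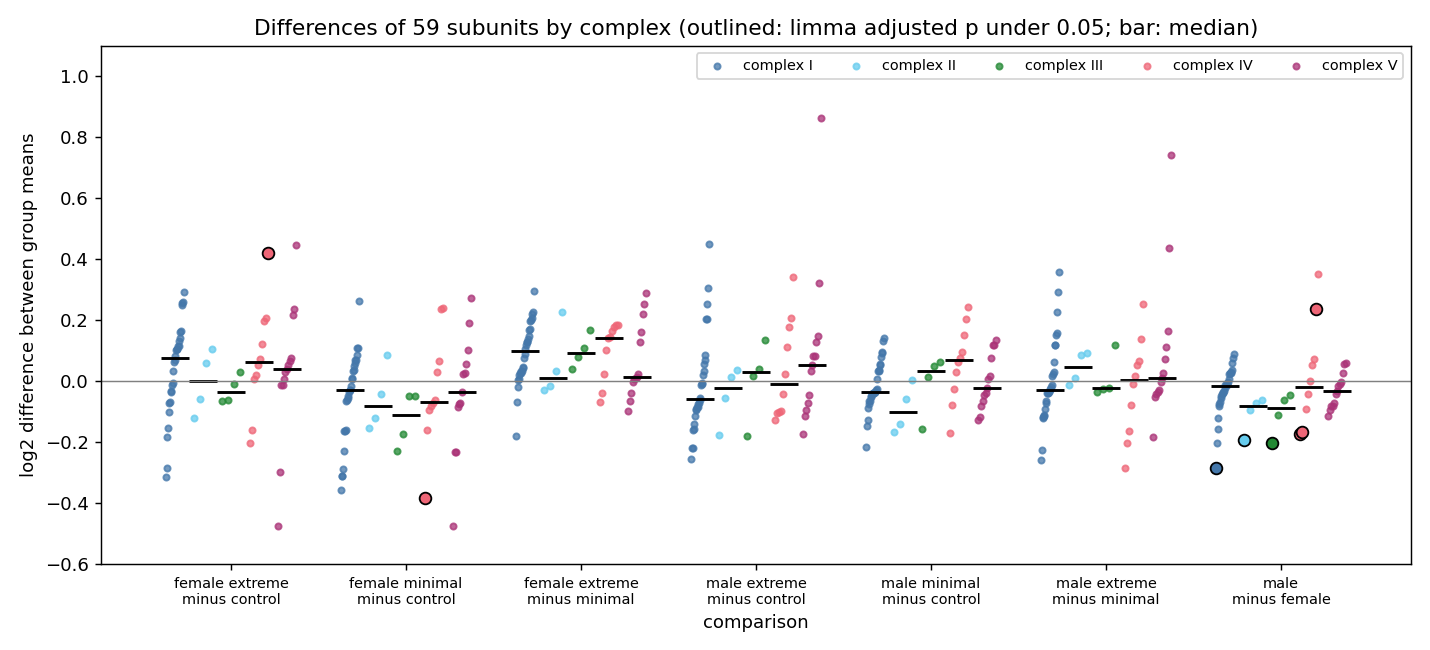
Log2 difference between group means (y axis) of the 59 members in 7 comparisons (x axis), coloured by complex, with outlined points at a limma adjusted p under 0.05 and bars at the median of each complex. Outlined points are Cox8a in female extreme minus control, Cox4i1 in female minimal minus control and 6 members in male minus female, Cox8b among them, and the medians stay between -0.111 and 0.144.

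Genes that build, feed or govern the complexes were counted from fixed lists, over the genes that passed the intensity filter. Of 31 such assembly and biogenesis factors (50 listed, 33 on the array), 3 were higher and 1 lower in exposed against control females, where 3.27% of all probes were higher and 3.60% lower. Cox19, which helps deliver copper to cytochrome c oxidase, rose by 0.40 (SE 0.08, limma adjusted p = 0.00262). Ndufaf5, a complex I assembly factor, rose by 0.30 (SE 0.07, limma adjusted p = 0.0136), and the copper chaperone Cox17 fell by 0.32 (limma adjusted p = 0.0345). In the list of the tricarboxylic acid cycle 2 of 10 rose, with Idh3b, a subunit of isocitrate dehydrogenase, at 0.46 (SE 0.08, limma adjusted p = 0.000663) and malate dehydrogenase Mdh2 at 0.30 (SE 0.09, limma adjusted p = 0.0377). Of 57 mitochondrial ribosome genes (59 on the array) 6 rose and 0 fell, with a median of 0.02. Of 10 genes of the mobile carriers and coenzyme Q route 1 rose, Coq6, at 0.30 (SE 0.08, limma adjusted p = 0.0169). Of 11 regulators of mitochondrial biogenesis (13 on the array) 0 were called. Array state differs between exposed and control females, as given above. No values of these list genes with the state as a covariate or with an array left out are given here.

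Between female extreme and minimal responders 1 gene of these lists was called. Coq9, which is needed for coenzyme Q synthesis, fell by 0.42 (SE 0.07, limma adjusted p = 0.00384). Of the mitochondrial ribosome genes 46 of 57 had a positive difference, with a median of 0.10, against 50.1% of all probes. Of the assembly factors it was 23 of 31, with a median of 0.09. Female minimal 2 averaged -0.34 in the mitochondrial ribosome list and -0.21 in the assembly list, far below its group. The other female minimal responders lay between -0.00037 and 0.078 in the former and between -0.00097 and 0.040 in the latter. Female extreme responders lay between 0.017 and 0.115 and between -0.011 and 0.107. In exposed against control males 0 genes of these lists were called. Positive differences were 14 of 57 in the mitochondrial ribosome list and 7 of 31 in the assembly factors, against 47.4% of all probes. All 5 male extreme responders and all 5 male controls lay in opposite array states, and the part of state in these signs was not tested. For the regulators, 0 of 11 were called in female extreme against minimal responders and 0 of 11 in males against females.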

How the data were processed

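RNA of 30 amygdalae was measured on Illumina BeadChips. Total RNA was labelled with the TotalPrep kit, per the labels' protocols. The authors deposited log2 intensities of 22523 probes, between 6.38 and 15.06 and with a shared median of 7.02. Background correction, software and normalization are given nowhere in the labels, and arrays hold no counts, so the number of arrays limits the precision. The 60 per-sample columns of another table were left out, since none of their names matches a sample, and the planned run on scanner values was not made.

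The 13308 probes over the array median on 5 or more arrays were fitted with limma 3.58.1 in R 4.3.3 as 6 group means over all 30 arrays, with 24 residual degrees of freedom and 11 comparisons. The Benjamini-Hochberg adjustment of p-values ran over the 13308 probes within each comparison. The fit was tested on simulated data. Exposed is the mean of extreme and minimal responders. Per comparison, the rule for named members took up to 12 called members each way and, where fewer than 6 passed, the 6 with the smallest p. The most variable member of each complex was added. From other lists up to 3 genes with the smallest p were named. Members and lists were chosen with earlier results of these data known.

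Alternatives were no filter, a stricter filter (60th percentile, 15 arrays), array weights, robust variances with a trend, the replicate number as a block, arrays of 1 sex, the array state as a covariate, 1 value per gene and each array left out. Arrays of a single state were added after seeing the data. Deviations of same-numbered female extreme and minimal responders correlated between 0.15 and 0.69 in all 5 pairs, so these numbers were taken as pairs. No other 2 groups met this. The same number gave the best match in 3 of the 5 pairs, and the sample titles name no pairing. The main fit treated these rats as independent, and the replicate block spanned all 6 groups.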

Additional observations from a re-analysis of the deposited data

Results flagged for a closer look

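The female minus male difference of the exposed minus control effect passed the limma test for 3 subunits, Atp5pf (-0.966), Ndufb2 (-0.528) and Cox4i1 (-0.397), as described above with the array states beside them.

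Single arrays stood far from the other 4 of their group in 9 of 204 groups of 5 examined, 29 members and 5 complexes over 6 groups, and chance alone gives about 1 in 20. In 4 of the 9, Atp5pf (13.14, next 12.01), Ndufb2 (12.67, next 12.16), Atp5mc2 (12.09, next 11.37) and Ndufa1 (12.63, next 12.23) were high in female extreme 2, the only female extreme responder on a lower-state array. Sdha was 9.842 in male extreme 4, with the next value at 11.20. Cox4i1 was 13.29 in female control 1, below the other female controls, whose lowest was 13.43. Ndufa1 was 12.36 in male control 3, above the next at 12.11. The dim Ndufb4 was 7.196 in male minimal 3 (next 7.036) and 7.037 in male control 5 (next 7.128).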

How the results depend on the processing

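Counts of called subunits are small, so a single gain or loss moves them. Lower-state arrays hold 1 female extreme and 2 female minimal responders against 5 female controls, and 1 male minimal responder, so lone rats there are assumed to vary like the other groups. In exposed against control females (2 called) the count was 1 without a filter and with the array state as a covariate, 5 with array weights, and 0 with female arrays alone and with lower-state arrays. In female extreme responders against controls (1) it was 3 with array weights and 0 with female arrays alone. With the array state as a covariate the called subunit changed there. Cox8a was lost (0.257, limma adjusted p = 0.288) and Atp5mk passed (0.669, limma adjusted p = 0.034). In female minimal responders against controls (1) it was 2 with array weights and 0 with female arrays alone and with lower-state arrays. In male extreme against minimal responders (0) it was 2 with array weights and 1 with male arrays alone. In male extreme responders against controls (0) it was 1 under the stricter filter, array weights and male arrays alone, in each case Atp5pf. In the female minus male difference of the exposure effect (3) it was 1 without a filter, 5 with array weights and 0 with the array state. The replicate block gave 2 in female extreme responders against controls, Cox8a and Atp5mk (0.45, limma adjusted p = 0.0484), and changed no other call of a subunit.

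With each array left out in turn, the count was between 0 and 5 in exposed against control females, 0 and 4 in female extreme responders and 1 and 2 in female minimal responders against controls. It was between 0 and 1 in male extreme responders against minimal responders and against controls, 0 and 3 and 0 and 1 in the female minus male differences of exposure and of response, and 5 and 8 in males against females, Cox8b included. In the other comparisons it was 0 throughout. No named difference changed sign in these runs.

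With the array state as a covariate these differences changed sign: Ndufb2 (0.0115) and Atp5pf (0.236) in exposed against control females, Ndufb2 (0.0827) in female extreme responders against controls, Atp5pf (-0.118) and Cox7a2l (-0.0335) in exposed against control males, Atp5pf (-0.0696) in male extreme against minimal responders, Atp5pf (-0.153), Cox7a2l (-0.17), Ndufa5 (-0.247), Ndufb2 (-0.187) and Atp5mc2 (-0.0951) in male extreme responders against controls, and Ndufb2 (0.114), Atp5pf (0.354) and Ndufa5 (0.339) in the female minus male exposure difference. With lower-state arrays alone they were Ndufb2 (0.0198) and Atp5pf (0.304) in exposed against control females, Ndufb2 (0.18) in female extreme responders against controls, and Atp5pf (-0.0344) and Atp5f1c (0.015) in male extreme against minimal responders. The cause was not tested.

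Over all probes, female arrays alone called 352 in exposed against control (914 with all arrays), 327 in extreme responders against controls (869), 70 in minimal responders against controls (263) and 7 in extreme against minimal (17). Male arrays alone called 350 in extreme responders against controls (106), 76 in extreme against minimal (0) and 53 in exposed against control (0). Array weights called 194 and 201 in exposed and in extreme against minimal males (0 each), 362 in male extreme responders against controls (106), 427 in female minimal responders against controls (263), 10 in female extreme against minimal (17) and 1403 in the exposure difference between the sexes (597). The array state as a covariate called 0 in male extreme responders against controls (106), 26 in female extreme against minimal (17) and 14 in the exposure difference between the sexes (597). The stricter filter called 140 in female minimal responders against controls (263), and in male extreme responders against controls no filter called 59 and robust variances 44 (106). Lower-state arrays alone called 328 in exposed against control females and 39 in female minimal responders against controls. Only 1 female extreme responder is on such an array, so counts for that group alone are not given. The run on scanner values was not made. Dim members limit what can be seen.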
